A study of Mus musculus with 9 samples.

Results

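Metallothioneins and antioxidant response genes were followed in primary calvarial cells of the mouse, the bone-forming progenitors released from the newborn skull, before and during osteoblast differentiation in culture. The 10 genes were chosen by symbol, with earlier results of these data known, and all 10 were present among the 40548 genes of the deposited tables. They are Mt1 and Mt2, the stress enzymes Hmox1 and Nqo1, the glutathione synthesis genes Gclc and Gclm, the thiol reductases Srxn1 and Txnrd1, the peroxidase Gpx3, and Nfe2l2, which encodes the transcription factor NRF2. RNA-seq was performed at 3 stages with 3 libraries per stage. Day 0 cells were C57BL/6 calvarial cells from pups at postnatal day 2 to 3, grown to confluency and collected without differentiation, in a medium free of ascorbic acid by the study's methods. Day 4 and day 7 cells came from the same kind of culture after 4 or 7 days in mineralization medium, which held ascorbic acid and β-glycerol phosphate, with fresh medium every day. All 3 stages share the strain, the tissue and the primary culture. The methods give the strain as C57BL/6J, wild type or with the ColI-GFP reporter, and the sample records do not say which of these was used. The methods also name pups of both sexes, 1 optional passage, and a wider range of pup age than the sample records do. The study calls the libraries of a stage biological replicates, and whether they came from separate litters is not given in the sources used here. Mineralized cultures were released with collagenase I before trypsin and other cultures with trypsin only, so the release step differed between stages. By the methods, the collagenase step was longer for day 7 cells than for day 4 cells.

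Metallothioneins are small cysteine-rich proteins that bind zinc and copper. Their genes are switched on by the metal-sensing factor MTF1, which binds metal response elements, and also respond to glucocorticoids and oxidants. NRF2 is held at low levels by KEAP1, an adaptor of a CUL3 ubiquitin ligase. When oxidants or electrophiles modify KEAP1, NRF2 accumulates, pairs with small MAF proteins and binds antioxidant response elements of genes for glutathione synthesis, quinone reduction and thiol repair. BACH1 competes for the same elements until haem releases it. Osteoblasts make large amounts of disulfide-bonded and hydroxylated collagen, and ascorbic acid, which differentiation medium supplies, is itself a reductant.

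Mt1 (ENSMUSG00000031765) lies on chromosome 8 of GRCm38 from 94179082 to 94180327 and Mt2 (ENSMUSG00000031762) from 94172664 to 94173568, both on the forward strand, with 5513 bases between the gene models of GENCODE M21. Hmox1 (ENSMUSG00000005413, 75093621 to 75100589, forward) and Nqo1 (ENSMUSG00000003849, 107388225 to 107403206, reverse) are on the same chromosome. Promoter windows of 250 bases before an annotated RefSeq start (GRCm38.p6) were available for 8 of the 10 genes, as 10 windows, 3 of them for Txnrd1. The windows below are shown because their genes carry the results that follow. Those of the 2 metallothioneins are given with the metal response element core in capitals (TGCACNC or TGCGCNC, on either strand).
Mt1 (chr8:94178839-94179088, forward strand): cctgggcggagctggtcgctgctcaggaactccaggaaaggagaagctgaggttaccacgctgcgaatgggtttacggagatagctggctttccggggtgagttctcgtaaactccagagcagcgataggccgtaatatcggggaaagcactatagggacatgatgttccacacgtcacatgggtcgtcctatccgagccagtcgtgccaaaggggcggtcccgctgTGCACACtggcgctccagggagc
Mt2 (chr8:94172368-94172617, forward strand): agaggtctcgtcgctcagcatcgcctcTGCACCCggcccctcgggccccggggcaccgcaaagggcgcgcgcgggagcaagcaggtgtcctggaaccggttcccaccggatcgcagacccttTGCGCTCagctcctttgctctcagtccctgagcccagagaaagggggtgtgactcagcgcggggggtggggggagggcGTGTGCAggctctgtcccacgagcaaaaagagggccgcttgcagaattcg
The Mt1 window held 1 such core and the Mt2 window 3, while the windows of Gclm and Srxn1, shown further on, held 2 and 1. Of all 32851 windows of this length in the RefSeq table, 21.4% held at least 1 core and 1.26% held 3 or more. Each window stands before 1 start, and GENCODE M21 also has transcripts that begin further downstream. They begin 122 and 152 bases downstream for Mt1, 46 and 242 bases for Mt2, and 111 bases or more for Gclm. Letters close to those starts were not searched.

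The antioxidant response element core was searched as TGACNNNGC on either strand, and 10.2% of all windows held it. Among the genes that encode NRF2 target enzymes, the windows of Gclm and Txnrd1 each held 1 core, shown in capitals. The capitals of Srxn1 mark TGAGTCAGC, the longer letters recognised by NRF2 with a small MAF partner, which were added to the search after the windows had been seen (TGACTCAGC or TGAGTCAGC, in 0.706% of all windows). These letters contain the AP-1 site TGAGTCA or TGACTCA, which 4.46% of all windows held.
Gclm (chr3:122245307-122245556, forward strand): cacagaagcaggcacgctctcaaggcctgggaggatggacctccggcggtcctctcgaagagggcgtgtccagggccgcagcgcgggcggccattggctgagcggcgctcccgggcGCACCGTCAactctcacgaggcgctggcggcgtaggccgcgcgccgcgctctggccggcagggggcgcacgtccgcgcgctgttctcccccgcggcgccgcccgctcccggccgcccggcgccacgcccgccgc
Srxn1 (chr2:152105274-152105523, forward strand): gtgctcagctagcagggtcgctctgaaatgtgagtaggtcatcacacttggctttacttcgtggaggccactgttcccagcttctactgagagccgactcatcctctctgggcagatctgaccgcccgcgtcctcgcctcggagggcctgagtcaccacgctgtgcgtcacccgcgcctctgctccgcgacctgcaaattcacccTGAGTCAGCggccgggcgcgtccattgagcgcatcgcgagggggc
Txnrd1 (chr10:82858956-82859205, forward strand): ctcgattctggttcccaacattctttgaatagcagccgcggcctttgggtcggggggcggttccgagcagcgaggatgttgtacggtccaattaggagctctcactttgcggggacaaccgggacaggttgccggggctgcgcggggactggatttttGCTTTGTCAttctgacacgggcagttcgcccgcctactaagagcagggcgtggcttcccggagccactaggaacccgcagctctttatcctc
The Mt2 window also held TGACTCAGC, which counts as 1 antioxidant response element core and 1 AP-1 site, and the Nfe2l2 window held 1 antioxidant response element core. The windows of Nqo1 and Gpx3 and the other 2 windows of Txnrd1 held none of the letters searched. A match describes the letters only.

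The reads counted on genes numbered from 7741204 to 14013219 per library at day 0, from 32820610 to 37306090 at day 4, and from 10675858 to 15622755 at day 7. Levels are given in RPKM, reads per kilobase of gene length scaled to the reads that the library has on genes. The length behind the values was 540 bases for Mt1, 556 for Mt2, 2161 for Hmox1 and 3417 for Txnrd1. In GENCODE M21 the exons of these genes cover 1246, 588, 1751 and 7086 bases. The order of genes by level and the size of a ratio between 2 genes therefore depend on the length used. Day 0 and day 7 share a table. Day 4 has a table of its own and is deeper, so stage, table and depth cannot be told apart for day 4, and its values were compared by direction without a test. Gm42418, a feature that overlaps ribosomal RNA, took 12% of the reads of day 0 replicate 3 and 8.12% of those of day 7 replicate 2, and Plekhh2 took 7.95% of those of day 7 replicate 3, which lowers every other gene's share there. Libraries of 1 stage correlated with each other at 0.988 to 0.996 over genes (Spearman). The stages were as labelled by their osteoblast markers, of which Ibsp, a bone matrix protein, had stage means of 3.82, 1158.5 and 2807.5 RPKM in the order of the days.

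Day 7 and day 0 were compared by limma on log2(CPM + 0.5) over 12712 genes, with Benjamini-Hochberg adjustment and a threshold of 0.05. Of the 10 genes, 2 were higher at day 7 (Mt1 and Gpx3), where 12.6% of all genes tested were called higher, and 6 were lower (Hmox1, Nqo1, Gclc, Gclm, Srxn1 and Txnrd1), where 18.6% of all genes were called lower. In either direction 31.2% of all genes were called. The other 2, Mt2 and Nfe2l2, did not pass. The median log2 fold change of the 10 genes was −0.67, and that of all genes tested was −0.112. The libraries of day 0 and day 7 did not overlap for the 8 genes that passed. Of all genes tested, 16.9% were higher and 25.4% were lower without overlap. The exact two-sided permutation test gave p = 0.1 for each of the 8, the smallest that 3 libraries against 3 allow. For Mt2 and Nfe2l2 the exact permutation p was 0.2. These are levels in whole cultures, in which fewer cells of a type and less RNA per cell cannot be told apart.

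**Figure D1:**
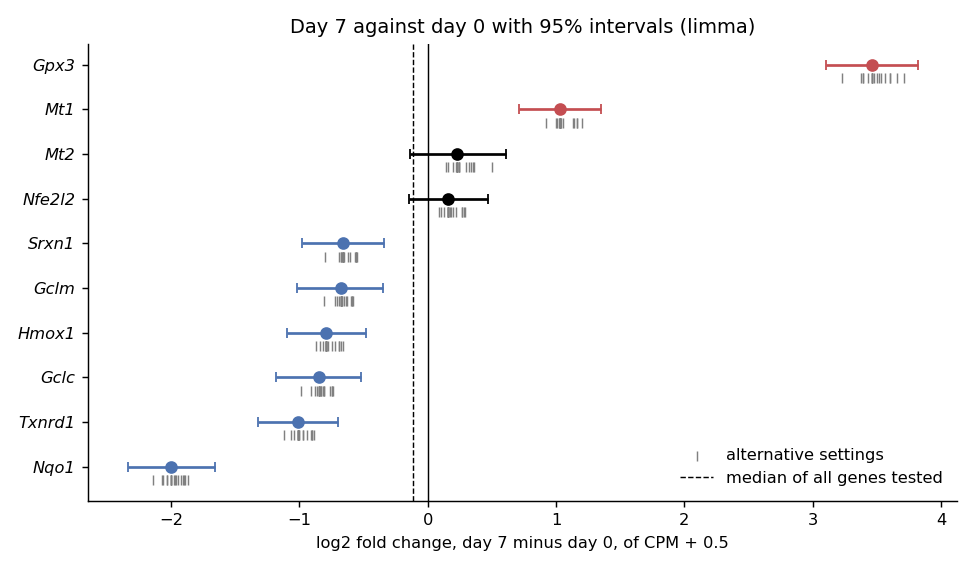
Log2 fold changes of the 10 genes from day 0 to day 7 on the log2(CPM + 0.5) scale, with 95% confidence intervals from limma (n = 3 libraries per stage), coloured red for higher, blue for lower and black for not past the threshold. Grey ticks are the values under the 18 alternative settings, and the dashed line is the median of all genes tested; Gpx3 lies at 3.46, Mt1 at 1.03 and Nqo1 at −2.0, and no tick crosses 0.

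Mt1 was the gene with the highest mean level among the 10 at day 4 and at day 7. The 3 libraries had 78.1, 79.9 and 75.6 RPKM at day 0, 247, 464 and 376 at day 4, and 186, 158 and 138 at day 7. The stages did not overlap, and every day 4 library stood above every library of the other stages. The stage means were 77.8 ± 2.17, 362 ± 109 and 161 ± 24.2 RPKM (SD, n = 3), which makes the day 4 mean 4.65-fold that of day 0 and 2.25-fold that of day 7. From day 0 to day 7 Mt1 rose by 1.03 on the log2 scale (standard error 0.16, 95% confidence interval 0.71 to 1.35, limma adjusted p = 8.31e-07).

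Mt2 was also highest at day 4, at a lower level than Mt1, but its day 7 libraries overlapped those of day 0. Its libraries had 20.7, 18 and 23.5 RPKM at day 0, 71.1, 180 and 116 at day 4, and 24.1, 27.1 and 22.1 at day 7. Day 4 stood apart from both other stages, whereas day 0 and day 7 overlapped. The mean of 123 ± 54.8 RPKM at day 4 was 5.92-fold the day 0 mean of 20.7 ± 2.71 and 5.02-fold the day 7 mean of 24.4 ± 2.53 (mean ± SD, n = 3). Between day 0 and day 7 the log2 fold change was 0.23 (standard error 0.19, 95% confidence interval −0.14 to 0.61, limma adjusted p = 0.372), and with voomWithQualityWeights, which weights libraries by their spread, it was 0.50 with an adjusted p of 0.0236. In both metallothioneins day 4 replicate 2 was the highest library and day 4 replicate 1 the lowest of its stage. In GENCODE M21 the antisense gene Gm45774 overlaps 73.5% of the exonic bases of Mt2. The sources used here do not give the strand used in counting, or whether the annotation used for counting held Gm45774. The methods kept only unambiguous reads. Whether reads from the overlap were counted to Mt2 or left out is therefore not known.

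Within a library, Mt1 exceeded Mt2 in every case, but by a ratio that changed with the stage. The ratio of their RPKM was 3.78, 4.43 and 3.22 at day 0, 3.47, 2.57 and 3.23 at day 4, and 7.74, 5.81 and 6.26 at day 7. Day 7 stood above both other stages without overlap. The means were 3.81 ± 0.604, 3.09 ± 0.463 and 6.6 ± 1.01 (mean ± SD, n = 3), and the exact two-sided permutation p for day 7 against day 0 was 0.1, the smallest this design allows.

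**Figure D2:**
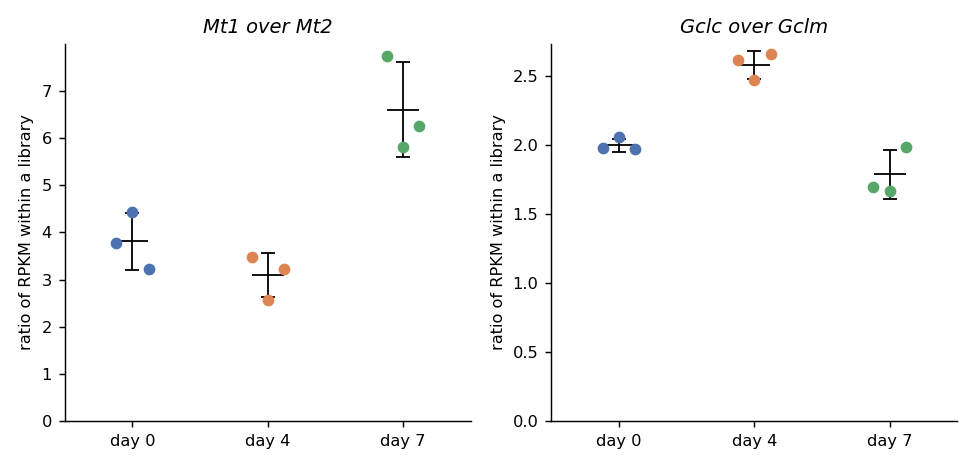
Ratio of RPKM within each library for Mt1 over Mt2 (left) and Gclc over Gclm (right) at day 0, day 4 and day 7, with points for libraries and black bars for mean and SD (n = 3); both axes start at 0. The Mt1 ratio is 5.81 to 7.74 at day 7 and at most 4.43 elsewhere, and the Gclc ratio is 2.47 to 2.66 at day 4 and at most 2.06 elsewhere.

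Genes of the dissociation and heat shock response, which can be induced while cells are released from a dish, also had their highest summed level at day 4. Of the 12 genes of this list, 8 stood higher in all day 4 libraries than in any of day 0, and 1 stood lower, against 21.4% and 22.0% of all genes compared. In the order of the stages, their summed level was 113 to 139, 239 to 289 and 130 to 183 RPKM. Between day 0 and day 7, 4 of the 12 passed as higher and 2 as lower, against 12.6% and 18.6% of all genes. Fos, an immediate early transcription factor, had stage means of 4.85 ± 0.237, 23.9 ± 1.99 and 5.1 ± 1.59 RPKM (SD, n = 3). Dusp1, an immediate early phosphatase that glucocorticoids also induce, had 4.58 ± 0.562, 19.2 ± 2.48 and 8.23 ± 1.43 RPKM at the same stages. The part of this response in the day 4 levels of Mt1 and Mt2 was not tested.

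**Figure D3:**
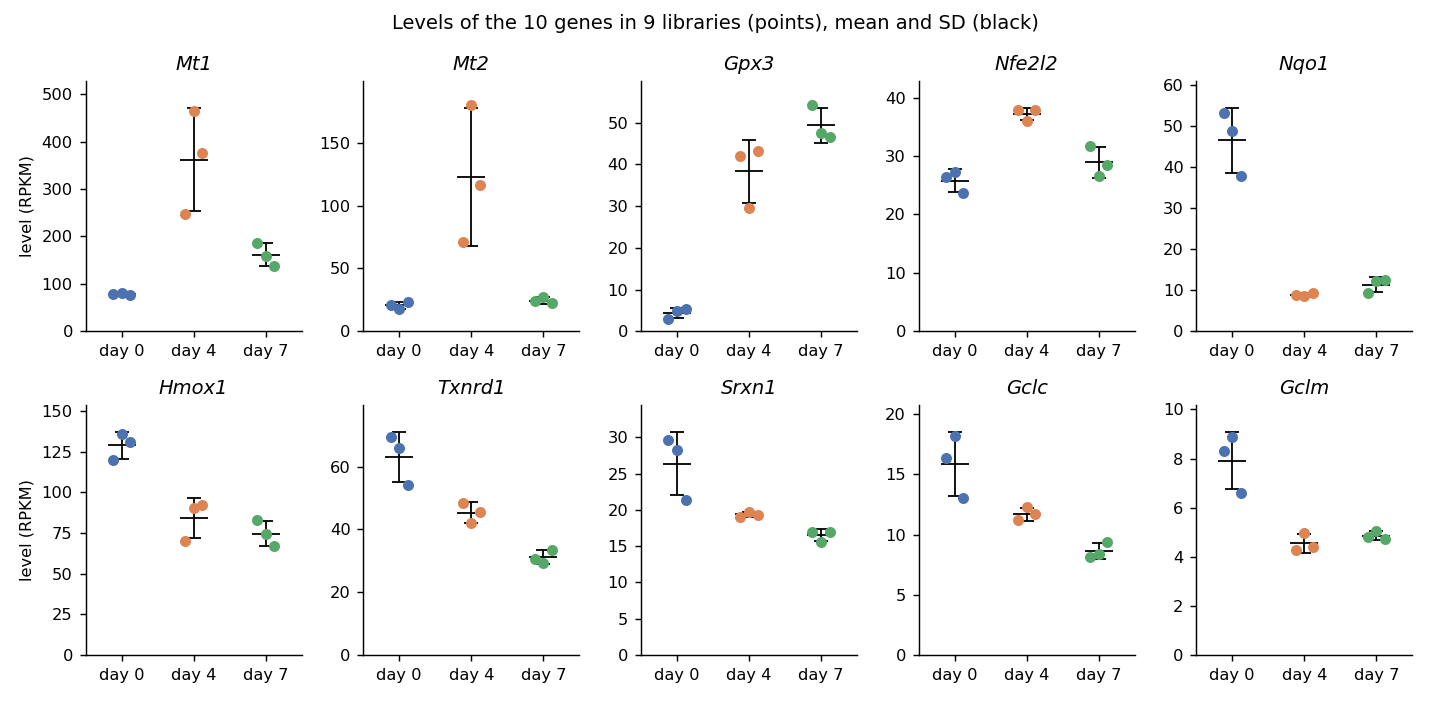
Levels of the 10 genes in RPKM (vertical axis from 0, a scale of its own per gene) in the 9 libraries by stage, with points for libraries and black bars for mean and SD (n = 3). Mt1, Mt2 and Nfe2l2 are highest in all 3 day 4 libraries, Gpx3 is lowest at day 0, and the other 6 genes are highest at day 0.

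Nqo1, which reduces quinones by a 2-electron transfer and is a widely used readout of NRF2, fell most among the 10 genes. It had 53.2, 48.9 and 37.8 RPKM at day 0, 8.72, 8.52 and 9.43 at day 4, and 9.38, 12.3 and 12.5 at day 7. Every day 0 library stood above every later one, and day 4 and day 7 overlapped. The day 0 mean of 46.6 ± 7.93 RPKM was 5.25-fold the day 4 mean of 8.89 ± 0.476 and 4.1-fold the day 7 mean of 11.4 ± 1.74 (mean ± SD, n = 3). The log2 fold change from day 0 to day 7 was −2.0 (standard error 0.17, 95% confidence interval −2.34 to −1.66, limma adjusted p = 8.56e-14).

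Hmox1, the inducible enzyme that opens haem to biliverdin, iron and carbon monoxide, was the most abundant of the 10 at day 0. It had 120, 136 and 131 RPKM at day 0, 69.8, 90.2 and 92.0 at day 4, and 82.8, 74.3 and 67.0 at day 7. Day 0 stood above the later stages, which overlapped. The stage means were 129 ± 8.44, 84 ± 12.3 and 74.7 ± 7.9 RPKM (SD, n = 3), and the log2 fold change from day 0 to day 7 was −0.79 (standard error 0.15, limma adjusted p = 4.93e-05). Hmox1 is also abundant in macrophages. All 12 macrophage markers tested were higher at day 7, against 12.6% of all genes. The summed level of the 13 markers was 53.1 to 88.6, then 106 to 121 and then 111 to 146 RPKM from stage to stage. Their part in the Hmox1 level was not tested.

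Gclc and Gclm encode the catalytic and modifier subunits of glutamate-cysteine ligase, which makes the rate-limiting step of glutathione synthesis. Gclc had 16.4, 18.2 and 13.0 RPKM at day 0, 11.2, 12.3 and 11.7 at day 4, and 8.17, 8.42 and 9.42 at day 7, so each stage lay below the one before it without overlap. Its log2 fold change from day 0 to day 7 was −0.85 (standard error 0.17, limma adjusted p = 5.14e-05). Gclm had 8.3, 8.87 and 6.59 RPKM at day 0, 4.27, 4.97 and 4.39 at day 4, and 4.79, 5.05 and 4.73 at day 7, so both later stages lay below day 0 and overlapped each other. Its log2 fold change was −0.68 (standard error 0.17, limma adjusted p = 0.00102). Gclc was lower again at day 7 than at day 4 in every library, which Gclm was not, and the ratio of Gclc to Gclm had stage means of 2, 2.58 and 1.79 with SDs of 0.0462, 0.101 and 0.177 (n = 3). The ratio of day 4 lay above both other stages in every library, while day 7 and day 0 overlapped (exact two-sided permutation p = 0.3). Of the Gclm exons, 3.88% of bases are shared with Gm6061 on the same strand and 4.71% with Gm17494 on the other.

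Srxn1, sulfiredoxin, repairs peroxiredoxins that have been overoxidised, and Txnrd1 is the cytosolic reductase of thioredoxin. Srxn1 had 29.7, 28.2 and 21.4 RPKM at day 0, 19.0, 19.7 and 19.3 at day 4, and 17.0, 15.6 and 16.9 at day 7. Txnrd1 had 69.3, 66.0 and 54.0 RPKM at day 0, 48.4, 41.9 and 45.6 at day 4, and 30.7, 29.2 and 33.5 at day 7. As for Gclc, each stage of both genes lay below the one before it without overlap. The log2 fold change from day 0 to day 7 was −0.66 for Srxn1 (standard error 0.16, limma adjusted p = 0.00106) and −1.01 for Txnrd1 (standard error 0.15, limma adjusted p = 6.47e-07). In all genes that fell, day 0 replicate 3 was the lowest of its stage except for Hmox1, and each of the 6 calls held when it was left out.

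Gpx3, the glutathione peroxidase that cells secrete into plasma and matrix, rose most. Its libraries had 3.03, 4.75 and 5.27 RPKM at day 0, 42.1, 29.5 and 43.2 at day 4, and 54.2, 47.6 and 46.5 at day 7. Each stage lay above the one before it without overlap. The mean of 4.35 ± 1.17 RPKM at day 0 was the lowest of the 10 genes, and the means of 38.3 ± 7.58 at day 4 and 49.4 ± 4.16 at day 7 were 8.79-fold and 11.4-fold higher (mean ± SD, n = 3). The log2 fold change from day 0 to day 7 was 3.46 (standard error 0.18, 95% confidence interval 3.10 to 3.82, limma adjusted p = 1.42e-21), from 74 to 103 reads per library at day 0 and 921 to 1342 at day 7.

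Nfe2l2 itself moved in neither direction past the threshold between day 0 and day 7 and was highest at day 4. It had 26.4, 27.3 and 23.6 RPKM at day 0, 37.8, 36.0 and 37.8 at day 4, and 31.7, 26.5 and 28.4 at day 7. Day 4 stood above both other stages, which overlapped. The means were 25.8 ± 1.92, 37.2 ± 1.04 and 28.9 ± 2.64 RPKM (mean ± SD, n = 3), and the log2 fold change from day 0 to day 7 was 0.16 (standard error 0.15, 95% confidence interval −0.15 to 0.47, limma adjusted p = 0.455). That call depended on the scaling: the log2 fold change was 0.27 with median-of-ratios scaling (adjusted p = 0.0179) and 0.27 with edgeR (adjusted p = 0.0161), 0.28 with DESeq2 (adjusted p = 0.0145) and 0.29 with voomWithQualityWeights (adjusted p = 0.00508). RNA levels of Nfe2l2 do not measure the amount of NRF2 protein, which is set mainly by its degradation.

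All 10 genes separated day 4 from day 0. In every library of day 4, 4 genes were higher than in every library of day 0 (Mt1, Mt2, Gpx3 and Nfe2l2), against 21.4% of all genes compared, and 6 were lower, against 22.0%. From day 4 to day 7, 1 was higher without overlap (Gpx3), against 13.7% of all genes, 6 were lower (Mt1, Mt2, Gclc, Srxn1, Txnrd1 and Nfe2l2), against 25.0%, and Hmox1, Nqo1 and Gclm overlapped. Nqo1 was higher at day 7 than at day 4 without overlap once the 9 libraries were scaled by median-of-ratios. Day 4 lay above both other stages for 3 of the 10 genes, against 8.07% of all genes. Another 3 fell at each step, against 4.36% of all genes, and 1 rose at each step, against 3.07%. For 0 of the 10 day 4 lay below both other stages, against 3.76% of all genes.

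The order of the 10 genes by level changed with the stage. At day 0 it ran Hmox1, Mt1, Txnrd1, Nqo1, Srxn1, Nfe2l2, Mt2, Gclc, Gclm and Gpx3, and among neighbours in that order Srxn1 overlapped Nfe2l2 and Mt2 overlapped Gclc. At day 4 it ran Mt1, Mt2, Hmox1, Txnrd1, Gpx3, Nfe2l2, Srxn1, Gclc, Nqo1 and Gclm, with overlaps of Mt2 with Hmox1, Txnrd1 with Gpx3, and Gpx3 with Nfe2l2. At day 7 it ran Mt1, Hmox1, Gpx3, Txnrd1, Nfe2l2, Mt2, Srxn1, Nqo1, Gclc and Gclm, with overlaps of Txnrd1 with Nfe2l2, Nfe2l2 with Mt2, and Nqo1 with Gclc. Nqo1 went from the fourth place to the ninth at day 4, and Gpx3 from the last to the fifth and then the third.

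The genes whose pattern over the 9 libraries was most like that of Mt1, Hmox1 or Gpx3 were named by Pearson r of log2 values among the 9100 genes whose mean CPM reached 10. The libraries share their stage, their table and their depth, so the values of r are a description. Nearest to Mt1 were Rasa4 (r = 0.994), Plp2 (0.987), Porcn (0.987), Hsd3b7 (0.986) and Ifitm10 (0.985), while Mt2 was in place 168 with r = 0.912 and Nfe2l2 in place 217 with r = 0.896. Nearest to Hmox1 were Serpinf1 (0.973), the glutathione transferase Gstm1 (0.959), the sterol regulator Srebf2 (0.957), the squalene synthase Fdft1 (0.957) and Fnbp1 (0.949). Nearest to Gpx3 were Ptprj (0.993), Specc1 (0.993), Chst15 (0.990), Adamts18 (0.989) and the bone matrix gene Ibsp (0.988), and Nqo1 was among the genes least like it (r = −0.961).

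The 10 genes were then set beside 8 lists of related genes, which together held 182 further genes. Of the 146 tested, 17 had risen by day 7 and 29 had fallen by the limma threshold, against 12.6% and 18.6% of all genes. The median log2 fold changes of the lists lay between −0.20 and 0.13, with that of all genes at −0.112. Calls of a rise depended on the scaling, with 41 genes higher after median-of-ratios scaling and 29 lower. Over all 12712 genes tested, 2843 were higher and 2612 lower with that scaling, against 1602 and 2369 in the main fit. Without day 0 replicate 3 the lower genes of the lists numbered 57, and those of all genes 4696. Without day 7 replicate 1 or without day 7 replicate 3 the higher genes of the lists numbered 11, and those of all genes 1174 and 1296. The counts of single lists under these settings, given below, stand beside these counts over all genes.

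**Figure D4:**
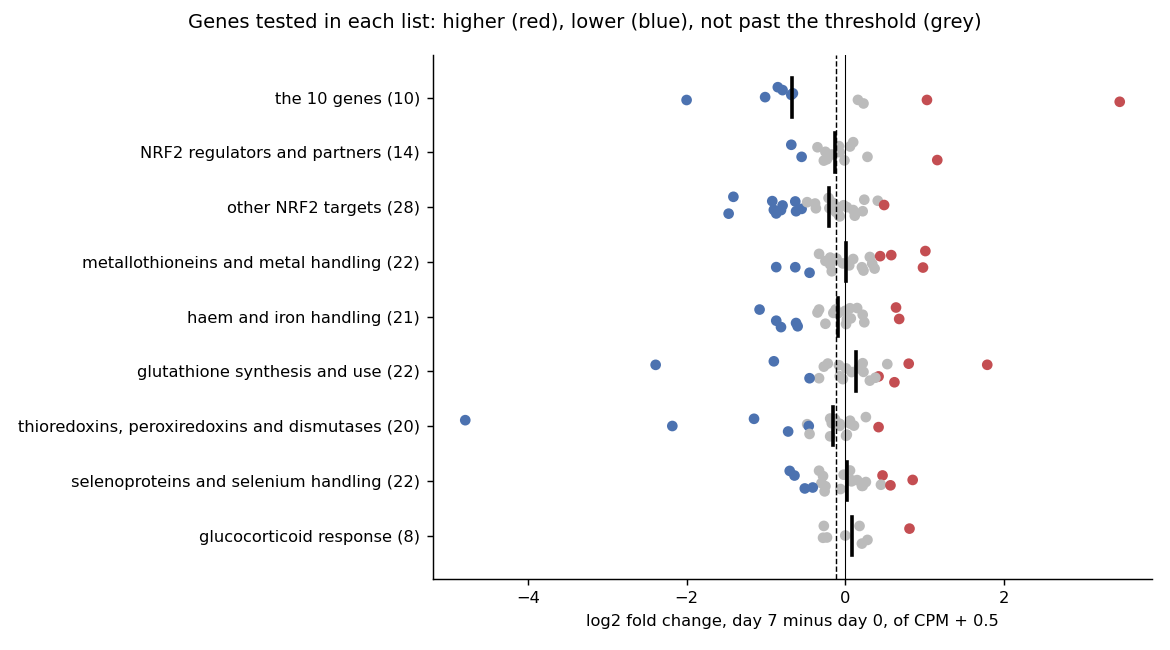
Log2 fold changes from day 0 to day 7 on the log2(CPM + 0.5) scale for the genes tested in each list (number in brackets), with the 10 genes at the top; red points are higher, blue lower and grey not past the limma threshold, black bars are list medians and the dashed line is the median of all genes tested. List medians lie between −0.20 and 0.13, while that of the 10 genes is −0.67; Txnip lies furthest left at −4.79.

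Among the regulators and partners of NRF2, 14 of 15 were tested. Of these, 1 was higher and 2 were lower, against 12.6% and 18.6% of all genes. The list had a median log2 fold change of −0.13. Without day 0 replicate 3 the lower genes numbered 7, and without day 0 replicate 2 they numbered 1. Maff, a small MAF partner, had stage means of 6.93 ± 0.718, 23.5 ± 4.32 and 15.8 ± 2.06 RPKM (SD, n = 3) and rose by 1.16 on the log2 scale between day 0 and day 7 (limma adjusted p = 5.15e-07). Like Mt1, Mt2 and Nfe2l2, it was highest in all 3 day 4 libraries. So were Mafk, with stage means of 7.07, 13.4 and 7.53 RPKM, and Sqstm1, with 110, 166 and 134 RPKM. Of all genes, 8.07% had this pattern. Btrc, a subunit of another ubiquitin ligase that acts on NRF2, fell by 0.68 on the log2 scale (limma adjusted p = 0.0021). The repressor Bach1 fell from 9.45 ± 1.26 to 6.38 ± 0.0821 RPKM (log2 fold change −0.55, limma adjusted p = 0.006), and without day 0 replicate 2 its adjusted p was 0.0637. Keap1 had 17.9 ± 2.4, 17.9 ± 0.906 and 17.7 ± 0.783 RPKM at the 3 stages (log2 fold change −0.01, standard error 0.16, limma adjusted p = 0.979). Mafg changed by −0.25 on the log2 scale (limma adjusted p = 0.238) and Nfe2l1 by −0.17 (limma adjusted p = 0.429), neither past the threshold, and without day 0 replicate 3 the adjusted p of Mafg was 0.0161 and that of Nfe2l1 0.0471.

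Of the other NRF2 targets, 28 of 36 were tested, 10 were lower and 1 was higher, against 18.6% and 12.6% of all genes. The list had a median log2 fold change of −0.20. With single libraries left out the lower genes numbered 9 to 13, and the higher genes numbered 4 with median-of-ratios scaling and 0 without day 7 replicate 1. Abcc4, an export pump of conjugates, fell from 5.43 ± 1.09 to 1.97 ± 0.228 RPKM (log2 fold change −1.41, limma adjusted p = 1.20e-08). The epoxide hydrolase Ephx1 fell from 99.1 ± 5.41 to 52.2 ± 3.08 RPKM (log2 fold change −0.92), the cystine importer Slc7a11 from 4.49 ± 0.883 to 2.37 ± 0.274 (−0.90), and the haem transporter Slc48a1 from 87.5 ± 4.41 to 47.7 ± 2.51 (−0.87), with limma adjusted p-values of 2.73e-06, 3.53e-05 and 7.26e-06. Of the 10 lower genes, 7 stayed below the threshold of 0.05 in each of the 18 alternatives. Ugdh, which makes UDP-glucuronate, rose by 0.49 on the log2 scale (limma adjusted p = 0.0171), but had an adjusted p of 0.193 without day 7 replicate 1. Abundant targets went both ways. Txn1 (−0.07) and Prdx1 (−0.07) had log2 fold changes that did not pass. Fth1, at a mean of 419 RPKM at day 0, fell by 0.62 on the log2 scale (limma adjusted p = 0.00213, and 0.0705 with DESeq2). Ephx1 and Slc48a1, given above, are also abundant and fell.

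Of the metal handling genes other than Mt1 and Mt2, 22 of 33 were tested, of which 4 were higher, 3 were lower and 15 did not pass, against 12.6% higher and 18.6% lower of all genes. With median-of-ratios scaling 9 were higher. The lower genes numbered 8 without day 0 replicate 3 and 2 without any other single library, and the higher genes numbered 2 without day 0 replicate 2 or day 7 replicate 1 or 3. Slc30a1, the zinc exporter at the cell surface and an MTF1 target like the metallothioneins, had 6.72, 6.47 and 5.91 RPKM at day 0, 5.51, 4.03 and 4.74 at day 4, and 3.92, 3.02 and 3.39 at day 7. It lay lower at each step without overlap and fell by 0.87 on the log2 scale from day 0 to day 7 (limma adjusted p = 5.77e-05), whereas Mt1 rose over the same interval. The zinc importers Slc39a13, whose loss causes a connective tissue disorder, and Slc39a14 rose from 19 ± 1.39 to 38.4 ± 5.03 RPKM and from 12.6 ± 1.59 to 25 ± 3.13 RPKM, by 1.01 and 0.98 on the log2 scale (limma adjusted p = 7.25e-07 and 1.42e-06). The copper pump Atp7a fell by 0.63 on the log2 scale (limma adjusted p = 0.00229). Mtf1 had 2.87 ± 0.262, 2.49 ± 0.325 and 2.08 ± 0.138 RPKM and passed narrowly (log2 fold change −0.45, limma adjusted p = 0.0382), a call lost in 8 of the 18 alternatives, among them each single library left out except day 0 replicate 3 (adjusted p 0.0718 to 0.171). The copper chaperone Atox1 (0.44, limma adjusted p = 0.0396) lost its call in 7 of the 18 alternatives, with adjusted p up to 0.232 when day 0 replicate 2 or 3 or day 7 replicate 1 or 3 was left out. Mt3 had 0 reads in each day 0 library and at most 2 elsewhere, and Mt4 had 0 in all 9.

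Haem and iron genes had 2 higher and 5 lower of 21 tested, from a list of 25, against 12.6% and 18.6% of all genes. Without day 0 replicate 3 the lower genes numbered 8, and with median-of-ratios scaling the higher genes numbered 4. The iron exporter Slc40a1 fell from 5.82 ± 0.918 to 2.72 ± 0.255 RPKM (log2 fold change −1.08, limma adjusted p = 9.46e-07), as did Slc48a1 and Alas1, which makes the first step of haem synthesis (−0.81, limma adjusted p = 6.21e-05). The ferritin heavy chain Fth1 fell from 419 ± 80.6 RPKM at day 0 to 270 ± 15.4 at day 7 (log2 fold change −0.62, limma adjusted p = 0.00213), but had an adjusted p of 0.0705 with DESeq2, and 1.59% of its 50-base stretches also occur in transcripts of other genes. Cpox and Hfe rose by 0.64 and 0.68 on the log2 scale (limma adjusted p = 0.00138 and 0.00756).

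In glutathione synthesis and use, 4 were higher and 3 lower of 22 tested, from a list of 28. Of all genes, 12.6% were higher and 18.6% lower. With median-of-ratios scaling the higher genes of the list numbered 9. Mgst3, a microsomal glutathione transferase, rose from 15.4 ± 4.11 to 53.6 ± 7.7 RPKM (log2 fold change 1.79, limma adjusted p = 1.49e-11), and Chac1, which degrades glutathione, from 48.8 ± 2.53 to 85.1 ± 4.68 (0.80, limma adjusted p = 3.80e-05). Gpx8, a peroxidase of the endoplasmic reticulum, rose by 0.62 on the log2 scale (limma adjusted p = 0.00267). Gpx7, from the same compartment (0.42, limma adjusted p = 0.0393), and Ggt7 (−0.45, limma adjusted p = 0.0473) passed narrowly and lost their calls in 6 and 10 of the 18 alternatives. For Gpx7 this included leaving out day 0 replicate 3 or day 7 replicate 1 or 3 (adjusted p up to 0.263), and for Ggt7 leaving out any library but day 0 replicate 3 (adjusted p up to 0.361). Slc7a11, given above with the NRF2 targets, is also in this list. Its fall (log2 fold change −0.90, limma adjusted p = 3.53e-05) kept its call in each of the 18 alternatives.

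Of the thioredoxins, peroxiredoxins and dismutases, 20 of 21 were tested, with 1 higher and 5 lower, against 12.6% and 18.6% of all genes. Without day 0 replicate 3 the lower genes numbered 9, and with median-of-ratios scaling the higher genes numbered 3. Without day 0 replicate 2 or day 7 replicate 1 or 3 none was higher. Txnip, the inhibitor of thioredoxin, had 43.2, 56.0 and 38.4 RPKM at day 0, 1.72, 1.17 and 1.68 at day 4, and 1.42, 0.957 and 2.30 at day 7. Every later library was far below day 0, with −4.79 as the log2 fold change at day 7 (limma adjusted p = 1.68e-25), the largest of any gene in these lists. The sestrins Sesn3 and Sesn1 fell by 2.18 and 1.15 on the log2 scale (limma adjusted p = 2.10e-16 and 4.93e-07), and catalase (Cat) by 0.72 (limma adjusted p = 1.84e-04). Prdx5 rose by 0.42 on the log2 scale (limma adjusted p = 0.0331), with a call lost in 6 of the 18 alternatives, including without day 0 replicate 2 or day 7 replicate 1 or 3 (adjusted p up to 0.151). In GENCODE M21 an antisense gene overlaps 19.4% of the exonic bases of Txnip and 19.1% of those of Prdx5.

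Among selenoproteins and selenium handling genes, to which Gpx3 and Txnrd1 also belong, 3 were higher and 4 lower of 22 tested, from a list of 26. Of all genes, 12.6% were higher and 18.6% lower. With median-of-ratios scaling the counts of the list were 8 and 3. The lower genes numbered 8 without day 0 replicate 3, 2 without day 0 replicate 2 or day 7 replicate 3, and 1 without day 0 replicate 1 or day 7 replicate 2, and the higher genes numbered 1 without day 7 replicate 3. The selenium carrier Selenop rose from 2.58 ± 0.481 to 4.74 ± 0.32 RPKM (log2 fold change 0.85, limma adjusted p = 5.83e-04), and Sephs1 fell by 0.70 (limma adjusted p = 5.85e-04). The calls of Selenos, Selenom, Eefsec and Selenon, with log2 fold changes of 0.57, 0.47, −0.51 and −0.41, were each lost in at least 1 alternative. Without day 7 replicate 3 the adjusted p was 0.0541 for Selenos, 0.0918 for Selenom, 0.144 for Eefsec and 0.158 for Selenon. The call of Selenom was also lost without day 7 replicate 1 (adjusted p = 0.113), and those of Eefsec and Selenon without day 0 replicate 1 or 2 or day 7 replicate 2 (adjusted p = 0.0994 and 0.264 without the last of these). Eefsec also missed the threshold without day 7 replicate 1 (adjusted p = 0.051). In the glucocorticoid response, 8 of 12 genes were tested, with 1 higher and 0 lower, against 12.6% and 18.6% of all genes. The higher gene was Dusp1 (log2 fold change 0.81, limma adjusted p = 4.13e-04). At an unadjusted p under 0.05 these counts were also 1 and 0. With median-of-ratios scaling, edgeR, DESeq2 or voomWithQualityWeights the higher genes numbered 3, while 3 were lower without day 0 replicate 3. At day 4, 4 of the 9 genes compared stood higher in each library than in any of day 0 and 0 stood lower, against 21.4% and 22.0% of all genes compared. From day 4 to day 7 these counts were 0 and 3, against 13.7% and 25.0%. The glucocorticoid targets Tsc22d3 (0.21) and Fkbp5 (−0.27) and the receptor Nr3c1 (−0.00) had log2 fold changes between day 0 and day 7 that did not pass.

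Markers of other cell types that the cultures could hold were read in the same libraries. Of the 9 osteoblast markers, 8 were higher at day 7, against 12.6% of all genes, and Runx2 did not pass. The summed level of the 9 was 2905.6 to 3357.1, then 10749.5 to 12988.5 and then 10833.8 to 14193.7 RPKM from stage to stage. Osteoclast markers summed to 102 to 134, 237 to 244 and 234 to 244 RPKM, nearly all of it from Ctsk. Of the 8, 4 were tested, with 3 higher and 1 lower at day 7, against 12.6% and 18.6% of all genes. At day 4, 4 of the 8 stood higher in each library than in any of day 0 and 0 stood lower, against 21.4% and 22.0% of all genes compared. In all libraries, 5 of the 8 stayed under 1 RPKM. The osteoclast fusion gene Dcstamp was at 0 in each library of day 0 and day 4. Endothelial markers summed to at most 0.459 RPKM, erythroid markers to at most 0.115 and adipocyte markers to at most 3.21, and none of these passed the filter on low values. The summed osteoblast and macrophage markers rose from day 0 to day 7, as did Gpx3 and Mt1, although Mt1 was highest at day 4. The part of these cell types in the changes of Gpx3 and Mt1 was not tested.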

How the data were processed

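RNA-seq was performed on 9 libraries, 3 at each of day 0, day 4 and day 7. By the methods and the submitters' processing notes, the authors depleted ribosomal RNA, aligned reads with STAR version 2.0.4b to Ensembl release 76 (GRCm38) and counted uniquely aligned reads per gene with featureCounts. The authors deposited CPM and RPKM values per gene. All CPM values were whole multiples of 1 read (100% within 0.01 of a read), so reads were recovered for count models, run as alternatives. Stages were taken from the sample records, and genes were matched by symbol and joined by Ensembl identifier.

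Day 7 was compared with day 0 by limma 3.58.1 (R 4.3.3, mean-variance trend) on log2(CPM + 0.5) for 12712 genes, those whose mean CPM over both stages reached 1. Adjusted p-values (Benjamini-Hochberg, all genes tested) were called under 0.05. This scale understates the change of low genes. The variance prior carried 42.9 degrees of freedom and a gene's own libraries 4, so a gene's own spread counted little. Alternatives covered the pseudocount, the filter, the scaling, the RPKM table, edgeR 4.0.16, DESeq2 1.42.0, voomWithQualityWeights (the study's own choice), robust variances, a replicate block and each library left out, and, chosen after seeing the data, totals without 4 features. Counting floors cover counting error only. The 10 genes and all lists were chosen with earlier results of these data known. Besides the 10 genes and marker lists, the text names fixed regulators, up to 4 rises and 4 falls per list past the threshold and with a mean CPM over 10, and the 5 genes most like Mt1, Hmox1 and Gpx3. Fos, Mafk, Sqstm1, Txn1, Prdx1, Tsc22d3, Fkbp5, Nr3c1 and Mt4 were added after their values were seen. Loci, overlaps and shared 50-base stretches come from GENCODE M21, and promoter windows from RefSeq.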

Additional observations from a re-analysis of the deposited data

How the results depend on the processing

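Each of the 10 genes kept its direction between day 0 and day 7 under all 18 alternatives, and the 8 calls were kept in each. Of 180 alternative values, 175 kept their side of the threshold and 5, all of Mt2 or Nfe2l2, passed it. The count of higher genes among the 10 was 4 with voomWithQualityWeights, and leaving out single libraries gave 2 higher and 6 lower each time. Against day 4, the genes higher at day 7 numbered 2 with median-of-ratios scaling over the 9 libraries (Nqo1 added), and 1 to 2, with 6 to 7 lower, when single libraries were left out. Nqo1 was added without day 4 replicate 3 or day 7 replicate 1, Gclm without day 4 replicate 2, and Hmox1 was lower without day 4 replicate 1. For day 4 against day 0 the counts of 4 higher and 6 lower held in each alternative.

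In the related lists, the higher genes numbered 17, but 41 with median-of-ratios scaling, 42 with edgeR, 35 with DESeq2 and 42 with voomWithQualityWeights. Over all 12712 genes tested, the higher genes numbered 1602, and 2843, 2818, 2581 and 3148 with the same alternatives. With single libraries left out, the higher genes of the lists numbered 11 (without day 7 replicate 1 or 3) to 17. The lower genes of the lists numbered 21 to 57, the latter without day 0 replicate 3. Over all genes, 3971 passed, against 6120 with voomWithQualityWeights and 6299 without day 0 replicate 3. Of the genes called, 40.3% were higher as deposited, 52.1% with median-of-ratios scaling and 25.4% without day 0 replicate 3.

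Libraries with the same replicate number did not deviate from their stage means together. With 3 libraries per stage this does not show whether they shared a litter or preparation. Deviations from the stage means correlated at −0.017, −0.181 and −0.444 between libraries of the same number, and with the number as a replicate block 3413 genes passed, 13 related genes were higher and 25 lower, and the calls of the 10 genes were the same.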
